A study of Mus musculus with 2 samples.

Results

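The Fc receptor genes of lymph node dendritic cells (DCs) were followed in single-cell data in which transcripts and DNA-barcoded antibodies were read from the same cells (CITEseq). Of 7 genes chosen by name for their role in antibody binding, 6 were among the 18049 genes listed in the expression values, namely Fcgr1, Fcgr2b, Fcgr3, Fcer1g, Tyrobp and Fcgrt, and Fcgr4 was not analysed here. The study asked how CD301b+ DCs of skin-draining lymph nodes (skin-dLNs) instruct CD4+ T helper cell differentiation after a type 2 stimulus. Live MHCIIhi CD11c+ B220- cells were sorted from B6 mice of both sexes aged 6 to 12 weeks. The naive library came from unimmunized mice, and the papain library from mice given 5 µg of the antigen OVA plus 50 µg of the protease allergen papain in both rear footpads 1 day earlier. The methods give pooled skin-dLNs for the naive library and popliteal nodes for the papain library, whereas the deposited labels give the same tissue for both, so that immunization and node site cannot be told apart. Cells carried the authors' antibody-based labels of Langerhans cells (LCs), cDC1s, and cDC2s split by surface CD301b into CD301blo, CD301bint and CD301bhi classes.

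Fc receptors bind the constant part of antibodies. In the mouse the activating receptors FcγRI (CD64, from Fcgr1), FcγRIII (Fcgr3) and FcγRIV (Fcgr4) signal through the ITAM of the FcR γ chain (Fcer1g), which they also need to reach the surface, whereas FcγRIIB (Fcgr2b) carries its own ITIM and is inhibitory. DAP12 (Tyrobp) is a related ITAM adaptor used by other myeloid receptors. FcRn (Fcgrt) pairs with β2-microglobulin and returns IgG from endosomes. CD64 is widely used to set macrophages and monocyte-derived cells apart from conventional DCs.

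There was 1 library per condition, so nothing here has a replicate, cells were not treated as replicates, and no difference between conditions was tested. Levels are UMIs summed over the cells of a class per 1000000 UMIs (CPM), counted at the 3′ ends of transcripts and not divided by gene length. The 95% intervals, exact Poisson for CPM and antibody counts, exact binomial (Clopper-Pearson) for shares of cells and exact conditional for ratios, cover counting error only. Cells with a class and both readouts numbered 3042 naive and 7306 papain, with a median depth by class of 10768 to 18290 UMIs, and 2 cell barcodes occurred in both libraries. The LC, cDC1 and cDC2 labels matched the marker genes Cd207, Clec9a and Sirpa. Cd207 (langerin) stood at 45.7 and 58.9 CPM in naive and papain LCs against at most 9.16 in any other class, Clec9a was highest in cDC1s at 5.48 and 10.1 CPM, and Sirpa was at 52.4 to 113 CPM in cDC2s against 8.79 to 35.9 in the other classes. Mgl2, which encodes CD301b, was at 15.2, 59.1 and 56.1 CPM in naive CD301blo, CD301bint and CD301bhi cDC2s. In the papain library it was at 0.831, 0.476 and 1.21 CPM. The cDC2 gene Cd209a was at 47.8, 45.0 and 32.2 CPM in the same naive classes and at 1.38, 0.0680 and 0.336 CPM in the papain ones. These papain levels lie below its 5.64 CPM in naive LCs and 6.64 in naive cDC1s. The split by CD301b rests on surface protein. Naive Mgl2 was lower in CD301blo than in CD301bint and CD301bhi cells, but did not rise from CD301bint to CD301bhi. Papain Mgl2 was low in every cDC2 class, and Cd209a did not rise with CD301b in either library.

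The antibody that reads CD64 carried the DNA barcode shown first here, with all bases in capitals because the whole run is the tag. It was shared with no other antibody of the panel, whereas CD11b and CD24 were listed with 1 and the same barcode and were not read apart.
CD64 antibody: AGCAATTAACGGGAG
CD11b antibody: TATATCTTTGCCGCA
CD24 antibody: TATATCTTTGCCGCA
The 12 antibodies of the panel included no isotype control. Cells were blocked before staining with an antibody against CD16/32, the products of Fcgr3 and Fcgr2b. In the RefSeq annotation of GRCm38.p6, the assembly behind mm10, Fcgr2b lies at chr1:170960558-170976071, Fcgr3 at chr1:171051169-171065915 and Fcer1g at chr1:171229572-171234349, with Fcgr4 between Fcgr2b and Fcgr3. Fcgr1 lies apart at chr3:96282909-96293969, Tyrobp at chr7:30413782-30417582 and Fcgrt at chr7:45092993-45103822. The extracellular parts of Fcgr2b and Fcgr3 are closely alike, so a read there may not be assigned to 1 gene with certainty. UMIs were counted at the 3′ ends, and how far this touches the values of both genes was not tested.

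Fcgr1 itself was almost undetected. In the naive library all 5 Fcgr1 UMIs lay in 1 CD301blo cell of 3042 cells with a class. None was found in naive LCs, cDC1s, CD301bint or CD301bhi cells, where 3 cells, taken as the limit that a count of 0 allows, would be 0.682%, 0.519%, 0.455% and 0.424%, and where the upper ends of the Clopper-Pearson intervals were 0.835%, 0.636%, 0.558% and 0.520%. In the papain library 36 UMIs lay in 18 of 7306 cells (0.246%, interval 0.146 to 0.389%), of which 10 were CD301bhi, 4 CD301blo, 1 CD301bint, 2 cDC1s and 1 an LC. The highest level of any class was 0.942 CPM (0.549 to 1.51) in papain CD301blo cells, where 12 of 17 UMIs came from a single cell. Droplets without a class that held T cell genes showed no Fcgr1 UMI in 225 naive and 229 papain cells at median depths of 7556 and 6983 UMIs. The upper ends of their intervals, 1.63% and 1.60%, lie above the 0.246% of papain cells. They are thus too few to set a background for that share.

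The Fcgr1 UMIs fell into cells of unlike expression. Of the 18 papain cells, 13 held a single Fcgr1 UMI. 3 cells held at least 10 UMIs of Lyz2 (lysozyme, abundant in monocytes and macrophages) and together 18 of the 36 Fcgr1 UMIs. These 3 were the CD301blo cell with 12 Fcgr1 UMIs, another CD301blo cell with 3 and the LC with 3, with 109, 181 and 310 Lyz2 UMIs. The other 15 cells, among them all 10 CD301bhi cells, shared the remaining 18 Fcgr1 UMIs. Fcer1g, the chain that FcγRI signals through, was detected in 17 of the 18 cells.

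The CD64 antibody gave few counts in every class but was more often present in the papain library. In the naive library the mean count per cell was 1.07 (0.989 to 1.15) in LCs, 0.813 in cDC1s, 0.694 in CD301blo, 0.830 in CD301bint and 0.590 (0.541 to 0.642) in CD301bhi cDC2s, with a median of 0 in all 5. In the papain library the means were 1.22, 0.952, 0.746, 1.55 and 1.88 (1.83 to 1.93). The difference was thus widest in CD301bhi cells, at 3.19-fold (2.92 to 3.49), next in CD301bint cells at 1.87-fold (1.73 to 2.03), and smallest in CD301blo cells at 1.08-fold (0.977 to 1.18), where the interval includes no difference. The share of CD301bhi cells with at least 1 count was 28.6% naive and 57.6% papain, and the share with 5 or more was 1.87% and 13.1%. CD301bhi cDC2s therefore had the lowest mean count of the 5 classes in the naive and the highest in the papain library. This order depended on the measure. The share of naive cells with a count was 26.4% in LCs, 34.4% in cDC1s, 26.9% in CD301blo and 26.4% in CD301bint cells, so CD301bhi cells were not lowest. Per 10000 antibody counts, papain CD301bint cells stood at 4.08 (3.94 to 4.23) and CD301bhi cells at 3.94 (3.84 to 4.05).

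Total antibody counts moved the other way. Naive cells had a median total of 7586 counts and papain cells one of 3852, and the mean count per cell of XCR1, CD103 and MHC II was lower in papain cells in all 5 classes. Only CD64 and Ly-6C of the 12 antibodies were higher in all 5. As a share of all antibody counts CD64 was 5.81-fold (5.32 to 6.36) higher in papain CD301bhi cells, 1.32-fold in LCs, and between these in the other classes. The CD64 values deposited by the authors, natural logs relative to the geometric mean of the panel, order the classes differently. Their highest median was 0.106 in papain CD301blo cells, the class with the lowest mean count in that library, and their papain and naive medians were 0.0301 and 0.0324 in LCs. At a CD64 count of 0 the deposited value still has a median of 0.0872 in papain CD301blo and 0.0238 in papain LC cells, since it then depends on the other antibodies alone. Because the classes were drawn from the antibody panel, CD64 differences between classes are a description.

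**Figure D1:**
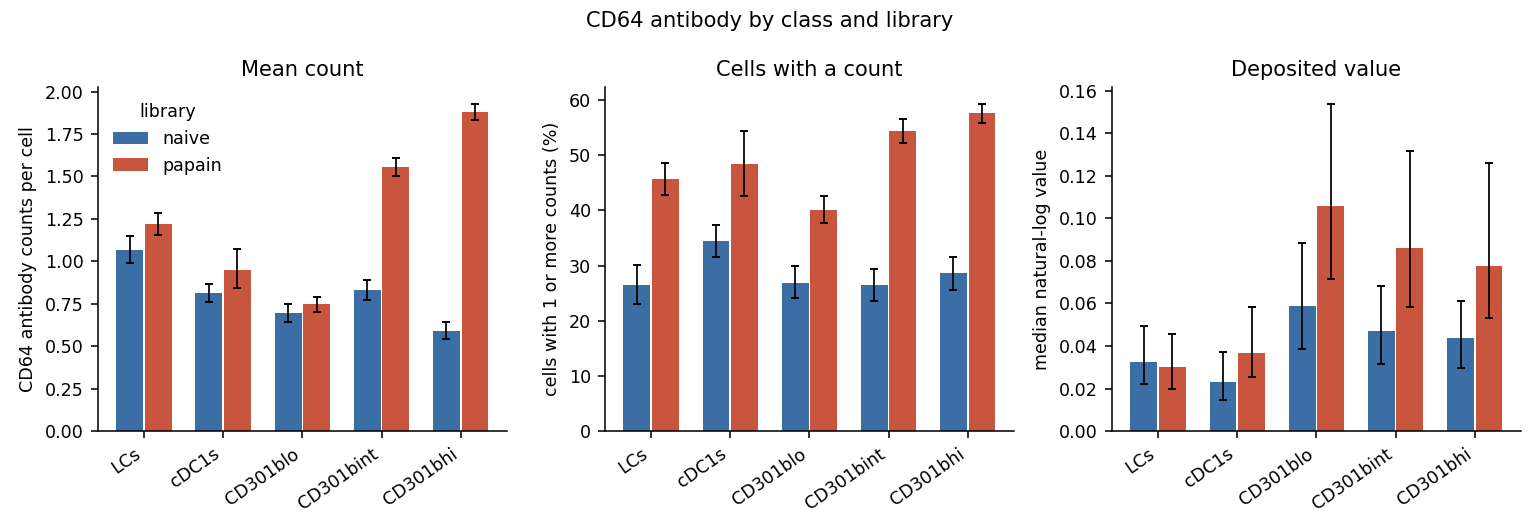
CD64 antibody by class and library: mean count per cell and share of cells with a count (bars, with 95% counting intervals), and the median deposited natural-log value (bars, with quartiles). The papain CD301bhi bar is highest by mean count (1.88) and share (57.6%), whereas the papain CD301blo bar is highest in the deposited value (0.106).

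Cells with Fcgr1 transcript carried more CD64 antibody than cells without. The 18 papain cells had a median CD64 count of 5 (range 0 to 18) and a mean of 5.50, against a median of 1 and a mean of 1.497 in the 7288 cells without an Fcgr1 UMI. A count of 5 or more was seen in 10 of the 18 cells (55.6%) and in 9.001% of the others. Set against the median of their own class, 14 of the 18 were above it, 3 at it and 1 below. The 15 cells with fewer than 10 Lyz2 UMIs had a median CD64 count of 4, and 11 of them were above their class median. The single naive cell with Fcgr1 had a CD64 count of 6 where its class median was 0. The Fcgr1 cells were also sequenced more deeply, with a median of 21774 against 14938 UMIs and 5275 against 3907 antibody counts. Their mean CD64 count was 3.67-fold that of the other cells, and 2.73-fold as a share of all antibody counts. The part of RNA depth in this difference is not given here.

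Read from the antibody side, the share of papain cells with an Fcgr1 UMI was 0.029% at a CD64 count of 0, 0.185% at 1, 0.255% at 2 to 4, 1.29% at 5 to 9 and 2.40% (0.498 to 6.85%) at 10 or more. Even among the 125 cells with the most CD64 antibody only 3 held an Fcgr1 UMI. Median depth went from 13646 to 21096 UMIs over the same bins. Of the 666 cells with a count of 5 or more, 656 held none.

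In papain LCs and every papain cDC2 class, mean CD64 antibody counts were higher in cells that held Fcgr2b transcript. This was not so in the same classes of the naive library. In papain CD301bhi cells the mean CD64 count was 1.68 (1.63 to 1.73) without an Fcgr2b UMI, 2.83 with 1, 3.28 with 2 to 4 and 4.57 (3.90 to 5.31) with 5 or more. In naive CD301bhi cells the same steps gave 0.627, 0.558, 0.469 and 0.471 (0.203 to 0.927). Papain CD301blo cells had 0.721 (0.677 to 0.768) without and 1.29 (1.07 to 1.55) with an Fcgr2b UMI, though the 5 cells with 5 or more had 0.2. Naive CD301blo cells had 0.843 without and 0.508 (0.349 to 0.713) with an Fcgr2b UMI. Papain CD301bint cells had 1.43 without and 2.64 (2.42 to 2.87) with an Fcgr2b UMI, papain LCs 1.22 and 2.34 (2.12 to 2.58), and naive LCs 1.20 and 0.389 (0.156 to 0.801). Naive cDC1s had 0.873 (0.797 to 0.953) without and 1.15 (0.646 to 1.90) in the 13 cells with an Fcgr2b UMI. Of the naive cDC2 UMIs of Fcgr2b, 71.7% lay in mRNA cluster 1.5, described below, where the mean CD64 count was 0.524. An Fcgr2b UMI was held by 50.4% of the 246 cells of that cluster and by 14.7% of the 536 cells of cluster 1.1. Whether the naive and papain cDC2s that held Fcgr2b were cells of a like kind was not tested. Per 10000 antibody counts the papain CD301bhi steps were 3.52, 5.33, 5.85 and 7.98. The papain CD301bint steps were 3.77, 6.32, 5.80 and 4.91, so they did not rise throughout. Other antibodies moved as well. Over the papain CD301bhi steps the mean CD11c count went from 289 to 703 and CD172a from 169 to 269. XCR1 was 1.498 and 1.46 there, and median depth went from 15760 to 20264 UMIs. In papain CD301bint cells the mean XCR1 count went from 2.29 to 25.9, the last in 17 cells. In naive CD301bhi cells CD11c went from 453 to 1252 over the steps in which CD64 did not increase.

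**Figure D2:**
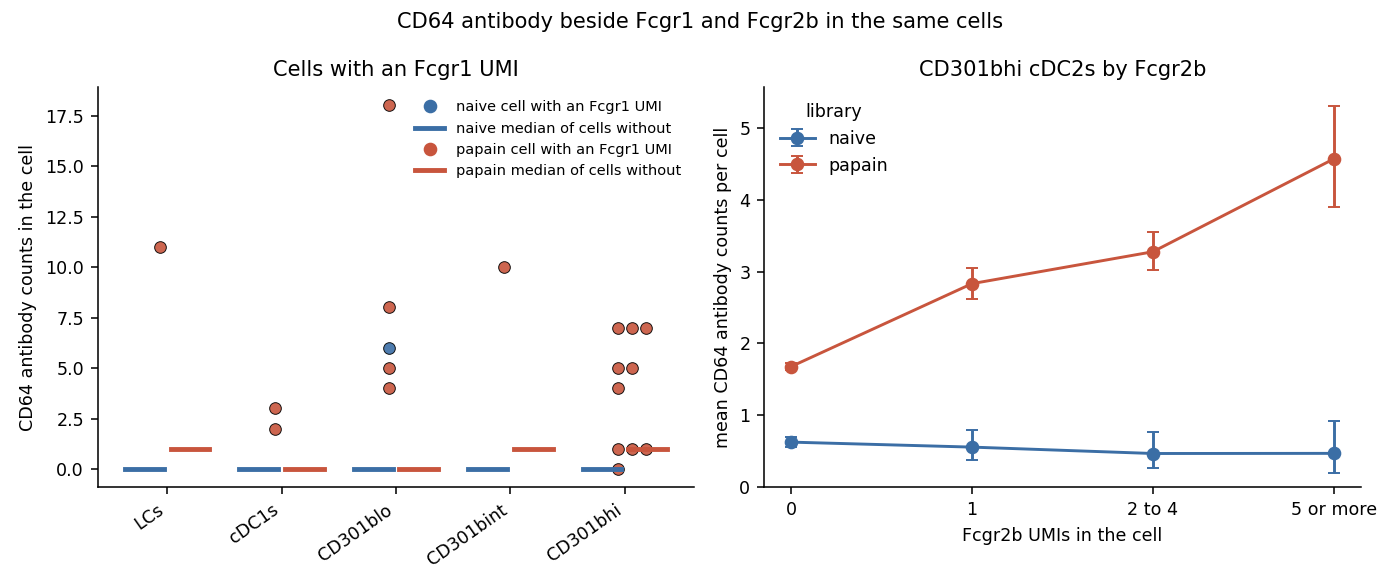
Left, CD64 antibody count of each cell with an Fcgr1 UMI by class (points), with the median of the cells without one (lines). Right, mean CD64 count of CD301bhi cDC2s by the Fcgr2b UMIs of the cell, with 95% counting intervals: the papain means go from 1.68 to 4.57, and the naive means stay at or below 0.627.

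Fcgr2b was the most abundant of the FcγR genes and was largely a cDC2 and papain LC transcript. In the naive library it stood at 7.15 CPM (5.06 to 9.81) in LCs, 1.69 in cDC1s, 23.7 in CD301blo, 20.9 in CD301bint and 25.7 (22.8 to 28.8) in CD301bhi cDC2s. In the papain library the levels were 20.001 (18.0 to 22.2), 1.95, 8.64 (7.34 to 10.1), 14.1 and 19.1 CPM (17.9 to 20.3). The 3 naive cDC2 classes were not separated by their intervals, whereas in the papain library CD301blo, CD301bint and CD301bhi stood in rising order with intervals apart. In papain over naive cells LCs were 2.80-fold (2.0001 to 4.02) higher and CD301blo cells 2.75-fold (2.23 to 3.39) lower, CD301bint and CD301bhi cells were 1.49-fold and 1.34-fold lower, and cDC1s gave a log2 ratio of 0.21 (-1.43 to 1.64). Some cDC2 features also differed in LCs. Sirpa was at 22.8 CPM in naive and 35.9 in papain LCs, the mean CD172a antibody count was 60.6 and 126, and the mean CD301b count was 20.3 and 76.2 with a median of 3 in both. The LC marker CD326 was also higher, at 1242 and 1737. The cDC2 marker list summed to 76.0 and 83.4 CPM in LCs. In the cDC2 classes it summed to 210 to 251 CPM naive and 128 to 152 CPM papain. Cd209a was at 0 in papain LCs, but at only 0.0680 to 1.38 CPM in papain cDC2 classes as well. Papain LCs with an Fcgr2b UMI had mean counts of 194 for CD172a and 145 for CD301b, against 133 and 80.7 in those without. In CD301blo cells the summed B cell marker list was at 63.3 CPM naive and 28.8 papain, with a B cell marker UMI in 30.7% and 18.5% of cells, and B cells express Fcgr2b. Without cells that held a T, B or NK cell marker UMI, the CD301blo log2 ratio was -0.88 in place of -1.46, no longer 2-fold, and the LC log2 ratio was 2.80 in place of 1.48. The part of cDC2 or B cell transcripts in these differences was not tested further. The share of LCs with a UMI was 4.09% naive and 19.5% papain, and 3.12% and 11.1% after each cell was thinned to 8392 UMIs, leaving out 127 naive and 110 papain LCs that were shallower. In T cell droplets 0.889% and 0.437% of cells held an Fcgr2b UMI, at median depths of 7556 and 6983 UMIs against 10768 and 18290 in LCs.

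Fcgr3 was low throughout and nearly absent in the papain library. Naive levels were 2.60 CPM in CD301blo, 4.64 in CD301bint and 5.52 (4.24 to 7.06) in CD301bhi cDC2s, with 0.753 in LCs and 0.737 in cDC1s. Papain levels were 0.776, 0.272, 0.178 (0.0814 to 0.338), 0.218 and 0 CPM in the same order. Over all cDC2s this was 135 UMIs in 54 of 2024 naive cells and 31 UMIs in 20 of 6190 papain cells, 13.8-fold (9.27 to 21.1) lower in CPM. No class reached the minimum of 10 CPM used below for counting 2-fold differences, so Fcgr3 is in none of those counts.

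The FcR γ chain and DAP12 genes were far more abundant than the receptors in every class, on the same scale of CPM. Fcer1g stood at 353 CPM in naive LCs, 158 in cDC1s, and 578, 526 and 463 in CD301blo, CD301bint and CD301bhi cDC2s, and at 329, 151, 484, 432 and 448 in the papain library. It was 3.28-fold (3.11 to 3.46) lower in cDC1s than in all cDC2s in the naive and 2.99-fold (2.72 to 3.28) lower in the papain library. It was detected in 64.7 to 68.5% of cDC1s against 90.9% or more of the cells in each other class, and in 8.89% and 4.37% of naive and papain T cell droplets. Tyrobp was spread more evenly, from 317 CPM in naive LCs to 482 in papain cDC1s. It was 1.47-fold (1.39 to 1.55) higher in papain than naive LCs, 1.28-fold higher in cDC1s and 1.16-fold higher in CD301blo cells, with CD301bint and CD301bhi cells at log2 ratios of -0.02 and 0.06. The cDC1s thus held DAP12 transcript at the level of the cDC2s in the papain library (log2 ratio 0.06, -0.01 to 0.14) with a fraction of their FcR γ chain transcript.

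Fcgrt was at 9.59 CPM in naive LCs, 16.01 in cDC1s, 28.0 in CD301blo, 27.5 in CD301bint and 18.6 in CD301bhi cDC2s. In the papain library all classes lay between 13.0 and 20.2 CPM. CD301blo and CD301bint cells were 1.699-fold (1.43 to 2.01) and 1.67-fold (1.44 to 1.94) lower in papain than naive cells, and for LCs, cDC1s and CD301bhi cells the interval of the ratio included no difference. B2m, whose product FcRn needs, was at 3332 to 5522 CPM in all classes and libraries, with log2 ratios of papain over naive from -0.31 in LCs to 0.25 in CD301blo cells.

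**Figure D3:**
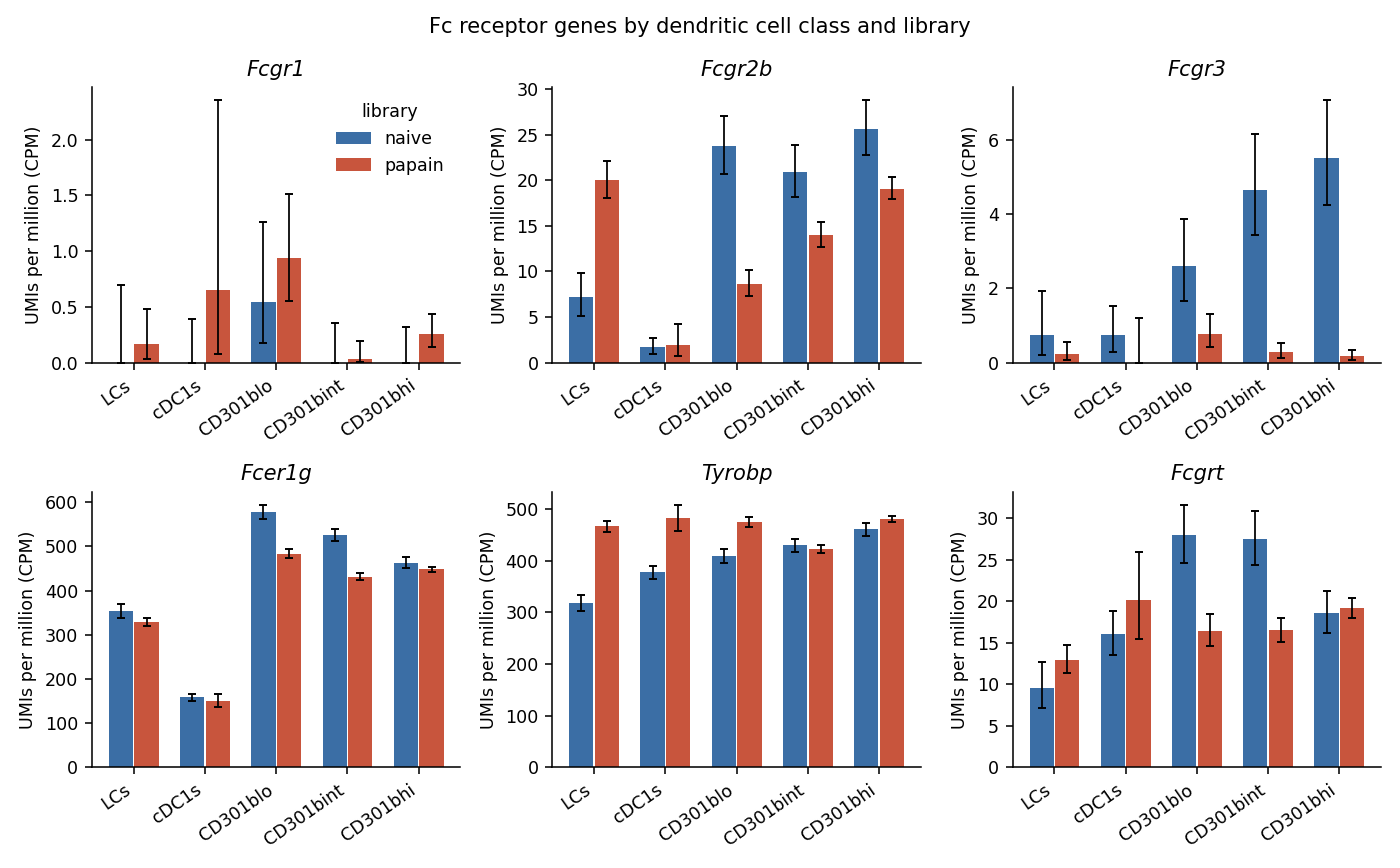
Level of each gene (CPM, bars) by class and library with 95% counting intervals, each panel on its own scale. Fcgr2b is higher in papain LCs (20.001 against 7.15 CPM) and lower in papain CD301blo cells (8.64 against 23.7), Fcgr3 is seen mainly in naive cDC2s, and Fcer1g is lowest in cDC1s.

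Differences of 2-fold or more were counted among genes that reached 10 CPM in either group, 4 members in most comparisons (Fcgr2b, Fcer1g, Fcgrt and Tyrobp) and 3 in cDC1s, where Fcgr2b was below it. In papain over naive LCs 1 of 4 was higher (Fcgr2b) and 0 lower, where 4.35% and 2.72% of all genes were. In cDC1s 0 of 3 were higher or lower (2.56% and 5.48% of all genes). In CD301blo cells 0 of 4 were higher and 1 lower (Fcgr2b), against 2.73% and 6.46%. In CD301bint and CD301bhi cells 0 of 4 passed in either direction, with 2.46% and 4.82%, and 2.27% and 3.78%, of all genes higher and lower. Between classes, a difference had to be seen in both libraries. In cDC1s over cDC2s 0 of 4 were higher and 2 lower (Fcgr2b and Fcer1g), against 2.19% and 3.42%. LCs over cDC2s gave 0 of 4 in either direction (1.39% and 1.73%), as did CD301bhi over CD301blo cells (0.261% and 0.813%).

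The naive cDC2 UMIs of Fcgr2b and Fcgr3 came largely, and those of Fcgrt in part, from 1 group of cells. The authors had divided cDC2s by their transcripts into mRNA clusters, 7 in the naive (1.1 to 1.7) and 9 in the papain library (2.1 to 2.9). Cluster 1.5 held 246 of the 2024 naive cDC2s, 21.7% of CD301blo, 9.71% of CD301bint and 5.52% of CD301bhi cells. It held 12.2% of the cells and 15.8% of all UMIs, but 71.7% of the Fcgr2b, 90.4% of the Fcgr3 and 48.3% of the Fcgrt UMIs. Fcgr2b stood there at 107 CPM (97.8 to 116) against 7.89 (6.85 to 9.05) in the other naive cDC2s, Fcgr3 at 24.96 against 0.498, Fcgrt at 74.5 against 14.9, Fcer1g at 958 against 436 and Tyrobp at 750 against 376. These genes were among those the clusters were made from, so the differences between clusters are a description. The only naive cell with a class that held Fcgr1 was also in cluster 1.5.

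Cells of cluster 1.5 differed from the other naive cDC2s in more than Fc receptors. Lyz2 stood at 3763 against 33.2 CPM and Csf1r, the receptor for the macrophage growth factor CSF-1, at 137 against 1.99. Ccr7, the receptor that guides migratory DCs to the node, stood at 1389 against 4087 CPM and the MHC II gene H2-Aa at 10180 against 2175. The mean CD64 antibody count in cluster 1.5 was 0.524, near the low end of the 0.491 to 1.38 of the other naive clusters. Over whole classes, the 10 listed genes of the monocyte and macrophage list summed to 648 to 824 CPM in the naive and 40.3 to 136 CPM in the papain cDC2s. None of the 10 was at 0 in any cDC2 class. In LCs, where Fcgr2b was higher with papain, that sum was 110 and 124 CPM. The sum is weighted to abundant members such as Lyz2, and not all members followed it. Ly6c2 was at 5.20 CPM naive and 8.03 papain in CD301blo, 0.0968 and 1.12 in CD301bint, and 0.175 and 0.138 in CD301bhi cells. Adgre1 was at 16.7 and 4.87, 12.8 and 8.91, and 13.6 and 10.1 CPM in the same classes.

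The cDC2 differences in Fcgr2b depended on such cells. Leaving out, in both libraries, every cell with 2 or more UMIs of monocyte and macrophage markers gave log2 ratios of papain over naive of 0.055, 0.80 and 0.50 in CD301blo, CD301bint and CD301bhi cells, so that CD301blo cells were close to no difference. Values without cluster 1.5 were added after the data were seen. They take cells from the naive library alone, and the cluster was made in part from Fcgr2b and singled out for it, so the ratio had to rise and only its size is described. Naive levels were then 3.44 CPM (2.18 to 5.16) in CD301blo, 7.42 in CD301bint and 11.1 (9.20 to 13.3) in CD301bhi cells. Papain cells were 2.51-fold (1.62 to 4.08), 1.89-fold (1.46 to 2.49) and 1.72-fold (1.41 to 2.096) higher. Among the naive cDC2 classes CD301blo was then lowest and CD301bhi highest, as in the papain library. Cluster 1.5 held 21.7% of CD301blo, 9.71% of CD301bint and 5.52% of CD301bhi cells, so leaving it out took most from CD301blo cells. The order is therefore a description and not a second observation of the papain order. Fcgr3 was left with 13 UMIs in 1778 naive cells, and its papain over naive ratio over all cDC2s was 0.635 (0.323 to 1.32). Fcgrt was 1.33-fold and 1.31-fold higher in papain CD301blo and CD301bhi cells, with CD301bint cells at a log2 ratio of -0.06 (-0.33 to 0.21), and Tyrobp was 1.13 to 1.54-fold higher in the 3 classes.

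**Figure D4:**
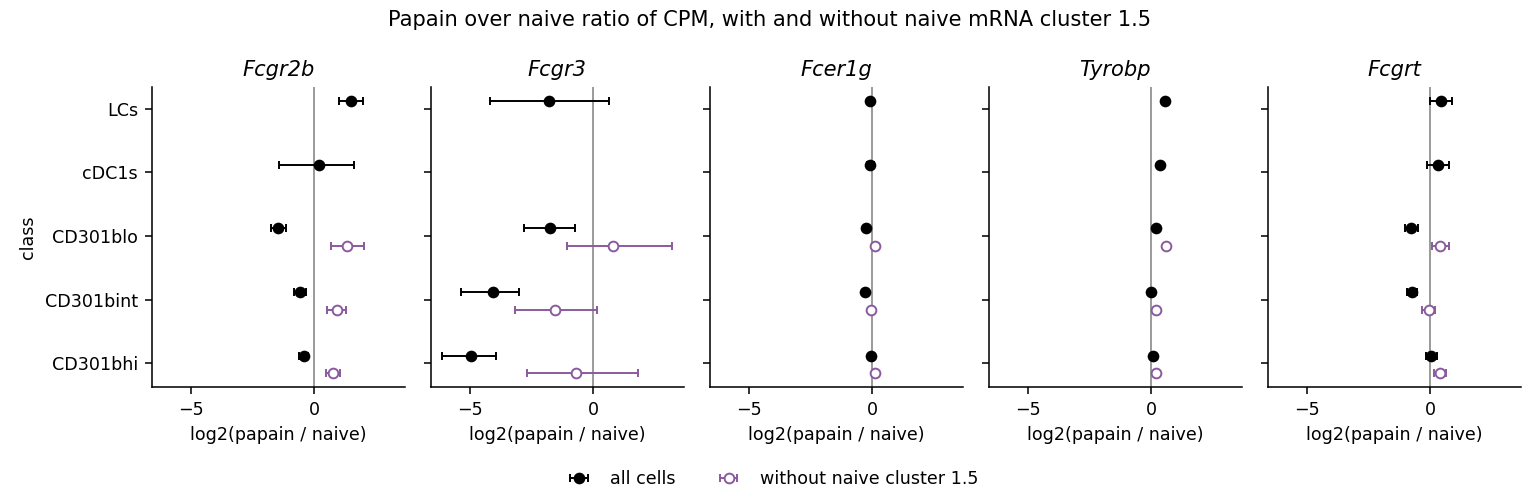
Log2 ratio of papain over naive CPM by class with 95% counting intervals, for all cells (filled) and without naive mRNA cluster 1.5 (open, cDC2 classes only). For Fcgr2b the filled cDC2 points lie below 0 (-1.46 to -0.43) and the open ones above it (0.78 to 1.33).

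In the papain library no cluster stood out to that degree. Fcgr2b was highest in cluster 2.1 at 32.0 CPM (29.9 to 34.2) and next in cluster 2.5 at 19.1, and lowest in clusters 2.7 and 2.2 at 0.917 and 2.23. Clusters 2.1 and 2.5 also had the highest mean CD64 antibody counts, 2.74 and 3.64 against 0.477 to 1.93 elsewhere, and held 13 of the 18 cells with an Fcgr1 UMI. Their Lyz2 levels were 46.5 and 18.3 CPM. The 2 clusters together hold 1990 cells, and cluster 2.5 had the deepest cells, at a median of 30021 UMIs. Tyrobp ranged from 172 CPM in cluster 2.9 to 831 in cluster 2.4, and Fcer1g from 311 to 549 CPM.

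**Figure D5:**
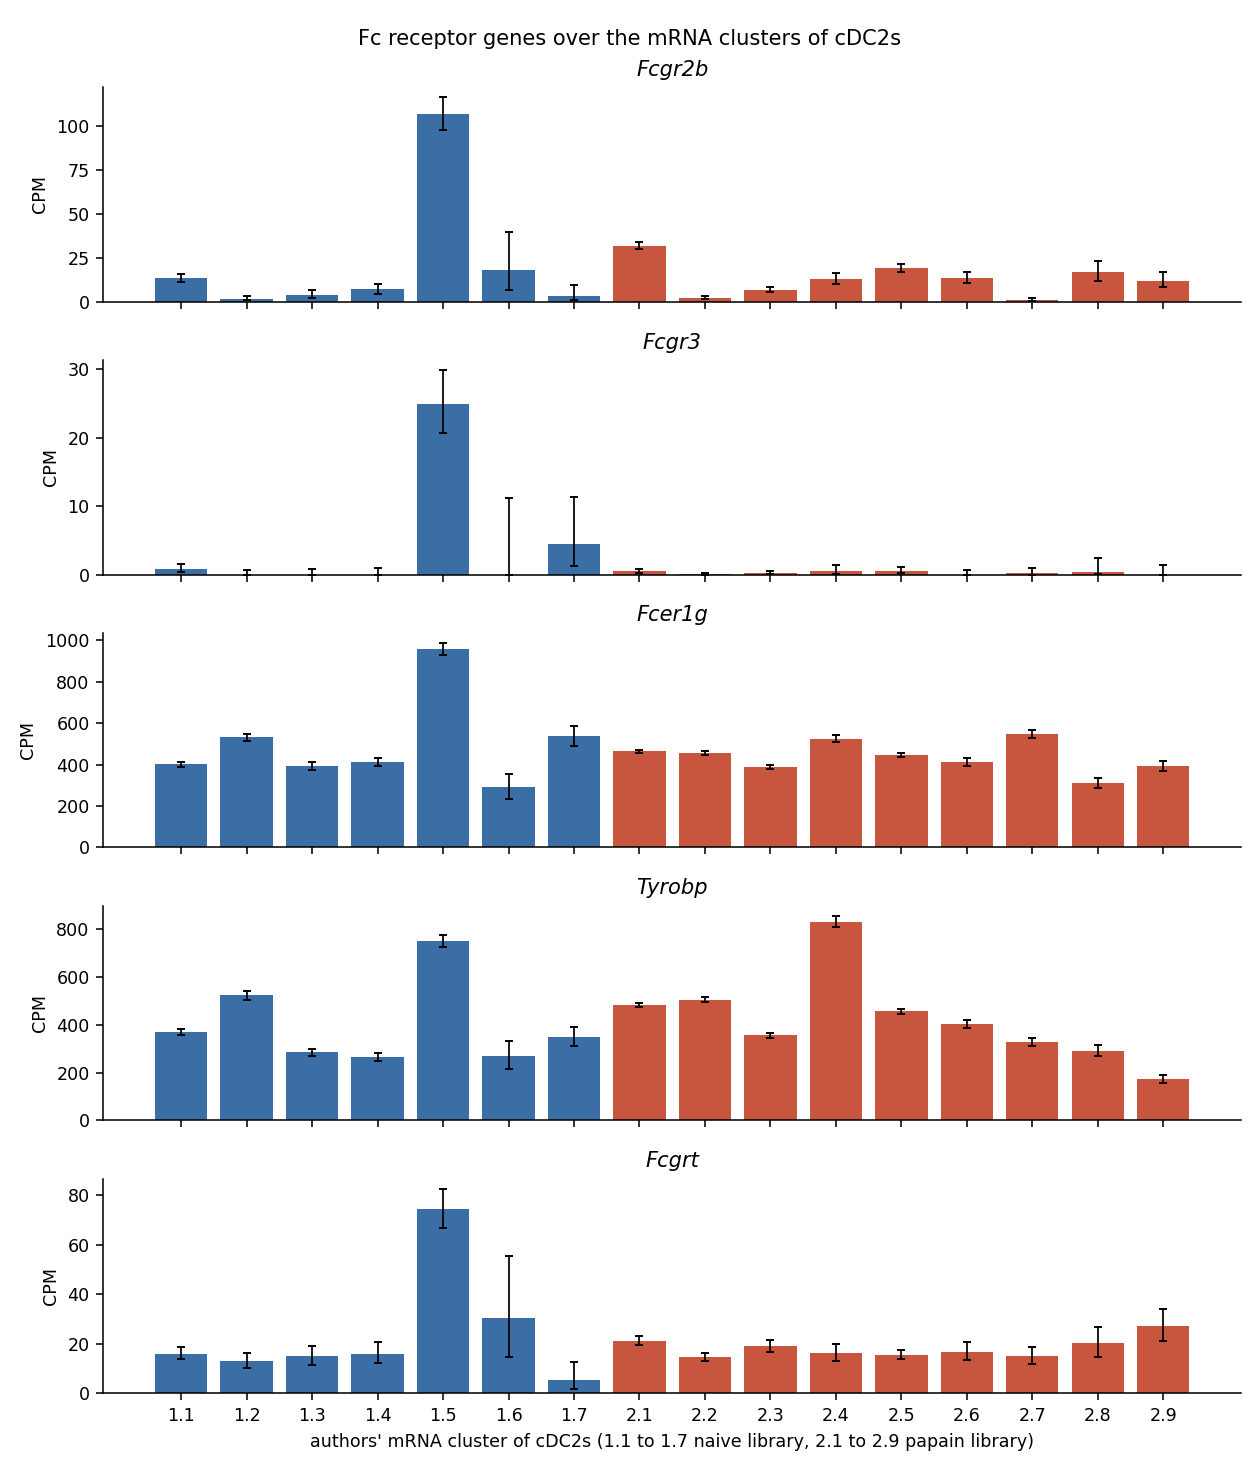
Level of 5 genes (CPM, bars, with 95% counting intervals) in the authors' mRNA clusters of cDC2s, naive in blue and papain in red. Cluster 1.5 is the highest naive bar for every gene, at 107 CPM for Fcgr2b and 24.96 CPM for Fcgr3.

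Other genes of the pathway were read from lists chosen by function. The list of partners of the FcR γ chain and DAP12 also held the related adaptor gene Hcst and Clec7a, whose product Dectin-1, a fungal receptor, has a signalling motif of its own. Of its 18 listed genes 6 reached 10 CPM in CD301blo cells, and 4 were lower and 2 higher by 2-fold or more in papain cells, where 6.46% and 2.73% of all genes were. Clec7a was at 189 CPM naive and 64.5 papain, the DAP12-linked Cd300c2 at 29.6 and 2.44, Sirpb1a at 15.5 and 1.88, and the adaptor gene Hcst (DAP10) at 19.4 and 5.37. Klrk1, which encodes the activating receptor NKG2D, was at 32.8 and 84.5 CPM and Pira2, a paired immunoglobulin-like receptor gene, at 5.96 and 17.2. Clec7a, Sirpb1a and Cd300c2 were lower and Klrk1 higher in CD301bint and CD301bhi cells as well. In LCs 2 of the 3 that reached 10 CPM were higher, against 4.35% of all genes, Klrk1 at 7.34 and 18.5 CPM and Pira2 at 2.63 and 11.99. The median log2 ratio over this list was -1.70 in CD301blo and 1.33 in LCs, beside 0.01 and 0.06 over all genes.

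Most naive cDC2 UMIs of the lower receptors Clec7a, Sirpb1a and Cd300c2 lay in cluster 1.5. It held 72.2% of the naive cDC2 UMIs of Clec7a, 94.3% of Sirpb1a and 92.7% of Cd300c2, but 18.1% of Klrk1 and 20% of Pira2. Without it, papain over naive cDC2s gave 0.580 (0.544 to 0.619) for Clec7a and 0.676 (0.484 to 0.958) for Cd300c2. Sirpb1a gave 1.22 (0.765 to 2.04) and Klrk1 2.26 (2.09 to 2.45). Hcst was not read in this way. Of the other Fc receptors, 8 of 12 were listed and only Fcrls reached 10 CPM in any of these comparisons. It was at 12.8 and 13.0 CPM in naive CD301bint and CD301bhi cells with no UMI in the papain ones, and cluster 1.5 held 96.2% of its naive cDC2 UMIs.

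Among the ITAM kinases and adaptors, 18 of 20 genes reached 10 CPM in each cDC2 class. In CD301blo cells 3 of the 18 were lower in the papain library, where 6.46% of all genes were, Lcp2 (the adaptor SLP-76) at 23.1 and 6.32 CPM, Pik3cd at 22.4 and 4.93 and Vav3 at 17.4 and 7.76, and none was higher. The list's median log2 ratio was -0.16. In CD301blo cells the summed T cell marker list was at 43.7 CPM naive and 12.2 papain, and the NK cell list at 20.7 and 0.665. The part of T or NK cell transcripts in the values of Lcp2, Pik3cd, Vav3 and Hcst was not tested. Syk, the kinase that binds phosphorylated ITAMs, was at 91.9 and 71.2 CPM in CD301blo cells, and was lower by 2-fold or more in cDC1s than in cDC2s in both libraries (18.3 and 28.0 CPM in cDC1s). Fgr and Blnk were lower in cDC1s likewise, and the kinase gene Src was higher, at 71.8 and 90.5 CPM in cDC1s against 5.90 to 10.9 in cDC2 classes. Of 14 genes of ITIM phosphatases and inhibitors, 11 reached 10 CPM in CD301blo cells and 3 were lower, again beside 6.46% of all genes, Inpp5d (SHIP-1, the phosphatase used by FcγRIIB) at 48.1 and 23.3 CPM, Cd300a at 25.5 and 2.05 and Lilrb4a at 19.1 and 7.31. In LCs only Dok3 passed, at 11.9 and 4.25 CPM, and in cDC1s Pirb was higher at 50.03 and 142 CPM.

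Over the 10 groups of class and library, the genes whose log2(CPM + 1) followed each member most closely were sought among 3288 genes with at least 50 CPM in some group. Fcgr2b was most like Baiap2 (Pearson r = 0.98), with Atp6v1e1 also among the closest, Fcer1g most like 2610528A11Rik (0.984), Specc1l and Gm5491, Tyrobp most like Zdhhc3 (0.944), Aamp and Stat6, and Fcgrt most like Hnrnpu (0.883), Trerf1 and Laptm5. Among the members, Fcgr2b and Fcer1g were most alike (0.893), while Fcer1g and Tyrobp, the 2 ITAM adaptor genes, gave 0.0866. The 10 points share 2 libraries and are not independent.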

How the data were processed

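The data are CITEseq libraries of sorted lymph node DCs, 1 naive and 1 papain, grouped by the labels and, within a library, by the authors' classes and mRNA clusters. The submitters' processing notes name Cell Ranger 3.0.1, Partek and the build mm10. Per the reporting summary, doublets were removed by scatter gating during cytometry. The authors' filters on sequenced cells, any computational treatment of doublets and the settings of their clustering are not given in the sources used here, and no doublet caller was run here. Deposited expression values are log2 of CPM plus 1, taken per cell. UMIs were recovered from them, and 100% of values up to 50 UMIs were whole within 0.02. The authors also give the number of expressed genes of each cell in counts. Their deposited mitochondrial percent and their deposited total, a score, were both formed from log2 values and were not used. The antibody values the authors deposited are natural log (ln) values, from which counts were recovered using the deposited antibody totals, which are counts. No column held the authors' comparisons, and 0 columns belonged to another series.

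UMIs were summed per class and library (Python 3.11.15, numpy 2.4.6, scipy 1.17.1, pandas 2.3.3). Differences of 2-fold or more were counted over genes that reached 10 CPM in either group, and a count of 0 was set to a floor of 3 UMIs in those counts. With 1 library per condition there was no test, so no p-value is given. Shares of cells were also computed after thinning each cell to 8392 UMIs. T cell droplets are cells without a class that held 2 or more UMIs of Cd3e and Trac. The ratio and interval code was tested on simulated data.

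The members and the lists were chosen with earlier results of these data known. Named were the members, at most 4 genes of each list past 2-fold in a comparison by highest CPM, the 3 genes most like each member, and marker genes, of which some are not reported here. Cluster 1.5 and the cut of 10 Lyz2 UMIs were singled out after their values were seen. Cells were planned to be binned by quantiles of the CD64 value, but at medians of 0 or 1 counts, bins of counts were used.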

Additional observations from a re-analysis of the deposited data

Results flagged for a closer look

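The papain over naive log2 ratio of Fcgr2b had opposite signs in different classes, with every counting interval on its side of 0. It was 1.48 in LCs and -1.46, -0.57 and -0.43 in CD301blo, CD301bint and CD301bhi cDC2s. With 1 library per condition this difference between classes was not tested. Without cells holding 2 or more monocyte and macrophage marker UMIs, taken out of both libraries, the 3 cDC2 values were 0.055, 0.80 and 0.50, and the LC value was 1.64. Without the naive cells of mRNA cluster 1.5, taken out of the naive library alone, the cDC2 values were 1.33, 0.92 and 0.78.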

How the results depend on the processing

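No paired analysis was possible because each condition had 1 library. Of 448 alternative values of 57 single ratios, 326 stayed within the counting interval, 99 moved out of it, and 23 changed sign where the interval with all cells lay to 1 side of 0. Sign changes of ratios whose interval included 0 are not among the 23. Leaving out naive mRNA cluster 1.5 (chosen after seeing the data) turned Fcgr2b to 1.33, 0.92 and 0.78 and Fcer1g to 0.10 and 0.12 (CD301blo and CD301bhi), and in CD301blo cells Fcgr3 to 0.79 and Fcgrt to 0.41, all as log2 ratios of papain over naive. In the naive library it turned Fcgr3 to 0.60 for LCs over cDC2s, 0.57 for cDC1s over cDC2s and -0.65 for CD301bhi over CD301blo cells, Fcgrt to 0.10 and 0.24 for the last 2 of these, and Tyrobp to 0.0057 for cDC1s over cDC2s. The numbers of members past 2-fold became 0 lower in CD301blo cells, 1 lower in cDC1s and 1 higher in CD301bhi over CD301blo cells. Leaving out cells with 2 or more monocyte and macrophage marker UMIs gave 0 and 1 for the first 2 of these counts, log2 ratios for Fcgr2b of 0.055, 0.80 and 0.50, for Fcer1g of 0.084 in CD301bhi cells, and in the naive library for Fcgr3 of 0.47 for LCs over cDC2s and -0.42 for CD301bhi over CD301blo cells. Fcgr1 in CD301bhi over CD301blo papain cells turned to 1.27 with that choice, to 2.05 without cells holding a T, B or NK cell marker UMI and to 1.52 without the deepest 5% of cells. The T, B and NK choice left 0 members lower in CD301blo cells. Scaling to the median ratio turned Tyrobp in CD301bhi cells to -0.033. Fcgr2b in LCs stayed between 1.42 and 2.80. Without a minimum CPM, 1, 2, 1 and 1 members were lower in papain LCs, CD301blo, CD301bint and CD301bhi cells. At 50 CPM 0 were higher in LCs, 0 lower in CD301blo cells and 1 lower in cDC1s.

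The median CD64 value (ln), papain minus naive, was -0.00231 in LCs, 0.00274 without CD11b and CD24 in the geometric mean and 0.397 counts per 10000 as a share of antibody counts. For cDC1s it was 0.0139, and 0.0261 without CD11b and CD24. As shares it was 1.52, 1.55, 3.04 and 3.27 per 10000 in cDC1s, CD301blo, CD301bint and CD301bhi cells, higher in papain as the ln values were. The 3.67-fold higher mean CD64 count of papain cells with an Fcgr1 UMI was 2.73-fold as a share of antibody counts and 2.81-fold without cells holding 2 or more monocyte and macrophage marker UMIs. The cause of these changes was not tested. Few UMIs of Fcgr1 and Fcgr3 were counted, which limits their ratios, and the spread between mice and libraries is unknown.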
